A study of Mus musculus with 10 samples.

Results

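The nuclear genes of the mitochondrial respiratory chain were followed in mouse neural retinas after light damage. Members were the protein-coding rows of the deposited expression table that lie outside the mitochondrial genome and whose symbols begin with Nduf, Uqcr, Cox4 to Cox8 or Atp5, or are Sdha, Sdhb, Sdhc or Sdhd. This rule took 94 of 54532 rows, which carry 93 names because Atp5o is listed under 2 identifiers. The rule used names and no measured value. It also took 8 Ndufaf genes, which encode assembly factors of complex I, and Cox7a2l and Atp5s, which are not counted among the subunits of their complexes. It left out some true parts of the chain, of which Cyc1, Cycs and Usmg5 were looked at beside it. Atpif1, which is not counted among the subunits of ATP synthase, was looked at with them.

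RNA was sequenced from retinas of BALB/c albino mice aged 2 months. All mice spent 12 h in the dark and then 1 day either under normal light of 200 lux (NL, n = 5) or under light of 15000 lux (LD, n = 5). No transgene or mutation was named for either group, and both groups came from the same albino strain. The paper describes BALB/c mice as light sensitive and elsewhere gives them as Tyr(c)/Tyr(c) and wild type for Rpe65. The values were FPKM, fragments scaled to gene length and library size, as the authors deposited them, and the reads recovered from them numbered 21343389 to 26832535 in NL and 18965090 to 23378090 in LD retinas. Retinas are called by group and by the number in their label, as in NL-8 or LD-7.

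Oxidative phosphorylation couples the oxidation of NADH and succinate to the making of ATP. Complex I (Nduf genes) and complex II (Sdh genes) pass electrons to ubiquinone, complex III (Uqcr genes) passes them on to cytochrome c, complex IV (Cox genes) hands them to oxygen, and ATP synthase (Atp5 genes) uses the resulting proton gradient. Photoreceptors pack mitochondria into their inner segments and are among the most oxygen-hungry cells of the body, and most subunits of the chain are made in the cytosol from nuclear genes while a few core subunits are made inside the organelle from its own genome.

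The chain as a whole stayed near its NL level after 1 day of LD, while single members moved in both directions. Of the 94 rows, 91 passed the filter of at least 0.1 FPKM in at least 5 retinas. With limma on log2(FPKM + 0.1) and an adjusted p under 0.05 over all 24508 genes tested, 7 members were higher after LD (7.69%, against 14.5% of all genes tested) and 14 were lower (15.4%, against 13.4%). Together 21 of 91 members (23.1%) were called, against 27.8% of all genes. The median log2 fold change of the members was -0.02 and that of all genes tested was -0.01. A single member, Cox6a2, passed an adjusted p under 0.01 together with a change above 2-fold, which 6.51% of all genes did. It met the filter only with its LD retinas, because NL-4, NL-5 and NL-7 lay below 0.1 FPKM. The 5 LD values and the 5 NL values did not overlap for 18 of 91 members (19.8%, against 22.4% of all genes).

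The changes were small. Members had a log2 fold change within 0.2 of 0 in 72 of 91 cases (79.1%), against 42.4% of all genes, and within 0.5 in 87. For 78 members the log2 fold change with 2 standard errors on either side lay wholly between -0.5 and 0.5. The median standard error was 0.07 among members and 0.16 among all genes, and the median member was at 34.3 FPKM in NL retinas against 2.34 FPKM for the median gene, so small changes were easier to call among members than among genes at large.

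**Figure D1:**
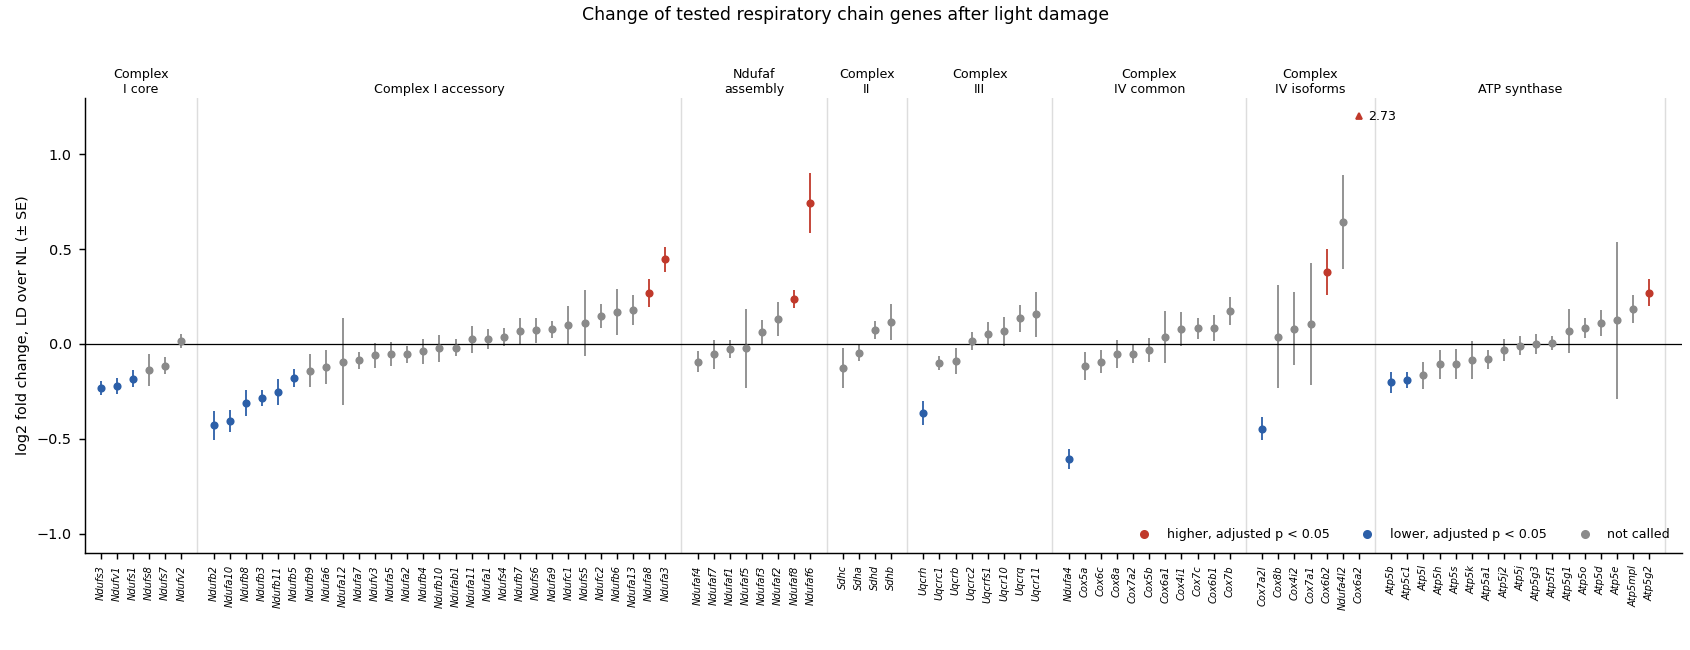
Log2 fold change of LD over NL (points, with standard errors as bars) for 90 of the tested members, ordered within each complex, with colour for the call at an adjusted p under 0.05. On this axis Cox6a2, at 2.73, is drawn as a triangle at the upper edge. Most members lie within 0.2 of 0. At the deposited scaling 9 of the 14 lower calls are complex I subunits, which make up 36 of the 91 tested members.

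In the same retinas the rod genes fell steeply. All 14 genes of a rod list were lower after LD, with a median log2 fold change of -2.16, and their summed level was 11768 to 14206 FPKM in NL retinas and 1903 to 3659 FPKM in LD retinas. Of 8 cone genes, 7 were lower. Of 8 microglial genes, 6 were higher, with summed levels of 31.1 to 47.3 FPKM in NL and 57 to 138 FPKM in LD. Of 8 Müller glial genes 1 was higher and 2 were lower, with a median log2 fold change of -0.10. The furthest of them was Glul, a glutamine synthetase, which fell from 711 FPKM ± 94.8 to 165 FPKM ± 8.77 (SD, n = 5). Of 6 endothelial genes 1 was higher, and their summed level did not overlap between groups, at 38.2 to 47.4 FPKM in NL and 52.8 to 88.2 FPKM in LD, while none of 7 amacrine and none of 8 ganglion cell genes was called. In a whole retina, fewer cells of a type and less RNA per cell cannot be told apart, and the part that these cell types have in the members' changes was not tested.

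Rod levels differed among the LD retinas too. The summed rod list was lowest in LD-4 and LD-6, and the cone list was lowest in the same retinas. The summed members were highest in LD-6, at 4698 FPKM, and lowest in LD-7, at 4026 FPKM, with 4588 FPKM in LD-4, 4444 FPKM in LD-8 and 4291 FPKM in LD-1. The NL retinas spanned 4228 FPKM in NL-8 to 4610 FPKM in NL-4, inside the LD range. The groups therefore overlapped in the summed level, with means of 4490 FPKM ± 153 in NL and 4409 FPKM ± 263 in LD (SD, n = 5).

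**Figure D2:**
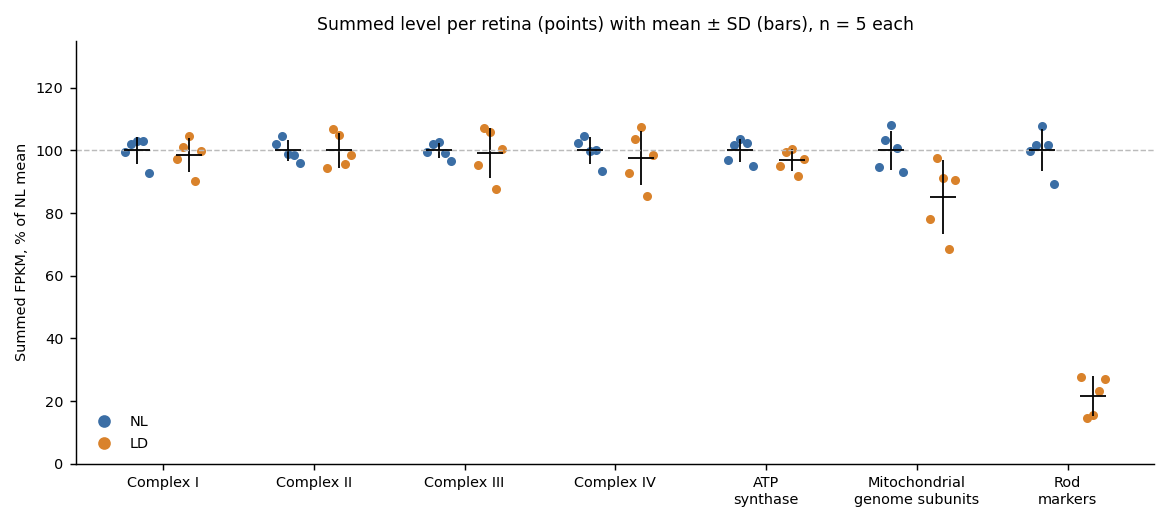
Summed FPKM of the members of each complex, of the 13 subunits of the mitochondrial genome and of 14 rod markers, per retina (points) and as mean ± SD (black bars, n = 5), in percent of the NL mean, on an axis from 0. The nuclear-encoded complexes of LD retinas lie around their NL level, from 85.6% upwards, while the rod markers lie far below it in each LD retina.

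How the libraries are scaled matters for changes of this size. The deposited FPKM carry a factor per retina in the library size, 0.951 to 0.968 in NL and 1.04 to 1.07 in LD, which lowers LD against NL by 0.13 on the log2 scale. Without that factor 25 of 91 members were higher and 6 lower, against 23.5% and 8.2% of all genes tested. As TPM (length-scaled values that sum to the same total in each retina) 20 of 92 were higher and 8 lower, against 18.6% and 7.47%. After quantile normalization 11 of 91 were higher and 13 lower, against 13.9% and 14.8%. With median-ratio factors set without rod and cone markers 6 of 91 were higher and 16 lower, against 13.5% and 14.6%. The median of all genes was -0.01 as deposited, 0.11 without the factor, 0.09 as TPM and -0.03 after quantile normalization and with median-ratio factors. After quantile normalization the median member (0.02) and the median gene moved in opposite directions from their deposited values. Relative to all genes the median member lay at -0.01 as deposited, at 0.00 without the factor, at -0.01 as TPM and at 0.05 after quantile normalization. Of the 21 calls, 12 held under all of these scalings, 6 of them higher and 6 lower, and the calls that did not are named below with their values.

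**Figure D3:**
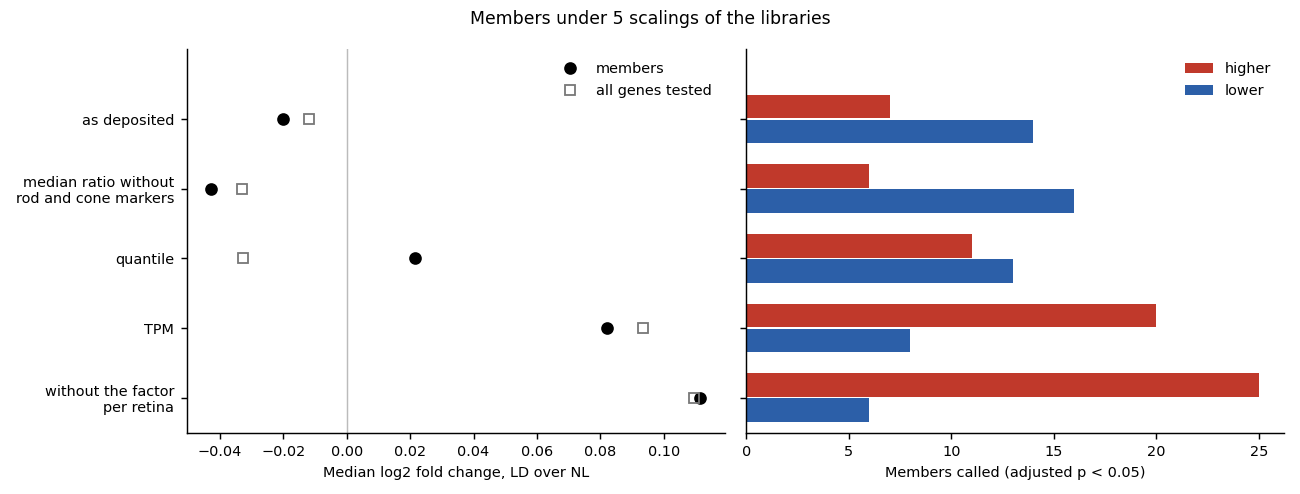
Left, the median log2 fold change of the members (filled) and of all genes tested (open) under 5 scalings; right, the number of members called higher or lower under each. Both medians are higher without the factor per retina and as TPM, and after quantile normalization they lie apart, at 0.02 for members and -0.03 for all genes. Calls range from 6 higher and 16 lower with median-ratio factors to 25 higher and 6 lower without the factor. Of all genes tested, 13.5% were higher and 14.6% lower with median-ratio factors, and 23.5% and 8.2% without the factor.

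Many respiratory chain promoters hold motifs of NRF1, of ETS factors such as GABPA, of YY1 or of ERR alpha, and RefSeq windows of 300 bases (250 before and 50 after the start, build GRCm38.p6) were searched for them on both strands. Windows were found for 76 of 93 member names, 81 windows in all. NRF1 (GCGCATGC or GCGCACGC) was found in 21% of member windows and 5.39% of all 32851 windows, ETS (CCGGAAG) in 22.2% and 8.86%, YY1 (AAGATGGC) in 13.6% and 2.75%, and ERR (TCAAGGTCA) in 2.47% and 0.423%. No motif was found in 53.1% of member windows and in 84.2% of all windows. Among the members that were lower after LD, 10 of 14 windows held none of these letters, among the higher ones 1 of 5, and among those not called 32 of 62, which is a description of few windows. The higher member whose window held no match was Cox6b2, and that window is not printed. The windows of Ndufa4 (chr6:11907401-11907700, minus strand) and Cox7a2l (chr17:83514284-83514583, minus strand) are shown as the members of complex IV, and of its link to complex III, that fell most and hold no match. Ndufa3 (chr7:3617123-3617422, plus strand) is shown as the subunit of complex I that rose most, with YY1 in capitals, and Sdhd (chr9:50603800-50604099, minus strand), which was not called, as the window with the most kinds of motif, with NRF1, ETS and ERR in capitals, of which ETS and ERR match on the opposite strand.
Ndufa4: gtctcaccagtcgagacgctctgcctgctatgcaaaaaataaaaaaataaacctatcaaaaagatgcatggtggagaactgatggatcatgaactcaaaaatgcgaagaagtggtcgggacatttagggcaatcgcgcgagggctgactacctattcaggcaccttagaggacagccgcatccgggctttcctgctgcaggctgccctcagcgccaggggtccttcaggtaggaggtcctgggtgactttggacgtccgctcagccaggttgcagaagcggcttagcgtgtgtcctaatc
Cox7a2l: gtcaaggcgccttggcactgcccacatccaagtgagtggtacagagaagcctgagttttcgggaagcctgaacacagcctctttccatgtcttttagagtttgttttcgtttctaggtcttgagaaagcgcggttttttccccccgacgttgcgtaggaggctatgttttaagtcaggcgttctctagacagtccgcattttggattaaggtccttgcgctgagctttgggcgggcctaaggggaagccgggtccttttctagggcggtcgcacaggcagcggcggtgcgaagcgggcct
Ndufa3: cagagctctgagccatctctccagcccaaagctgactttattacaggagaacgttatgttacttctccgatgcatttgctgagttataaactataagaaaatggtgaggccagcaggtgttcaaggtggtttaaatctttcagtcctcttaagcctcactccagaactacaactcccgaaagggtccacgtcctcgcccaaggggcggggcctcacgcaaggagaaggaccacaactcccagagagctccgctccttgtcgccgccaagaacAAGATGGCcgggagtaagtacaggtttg
Sdhd: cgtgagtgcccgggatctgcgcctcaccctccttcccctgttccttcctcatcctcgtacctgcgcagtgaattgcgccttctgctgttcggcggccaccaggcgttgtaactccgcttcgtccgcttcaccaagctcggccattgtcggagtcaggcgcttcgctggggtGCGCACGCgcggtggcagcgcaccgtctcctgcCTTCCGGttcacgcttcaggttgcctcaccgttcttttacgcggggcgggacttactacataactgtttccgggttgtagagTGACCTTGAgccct

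Levels of the members kept their broad order, although single members changed rank, as Uqcrh did from 18 to 30 and Ndufa3 from 37 to 25. The level per length was highest for Cox6a1, the general form of a regulatory subunit of complex IV, at 324 FPKM ± 49.2 in NL and 333 FPKM ± 55.7 in LD. Cox8a followed with 281 FPKM ± 8.51 and 271 FPKM ± 23.2, and Atp5b, the catalytic beta subunit of ATP synthase, with 216 FPKM ± 11.5 and 187 FPKM ± 5.19 (SD, n = 5). Cox6a1 and Cox8a overlapped in both groups, so their order is not set beyond their spread. Atp5a1 and Cox4i1 came next and changed places, at 173 and 162 FPKM in NL and 163 and 172 FPKM in LD. Spearman's rho between the NL and the LD means of the 91 tested members was 0.987, across genes that are not independent. The lowest tested members were Ndufaf2, Ndufa4l2 and Cox6a2. Cox7b2 (0 to 4 reads per retina) missed the filter, and Cox8c and the second Atp5o identifier were listed at 0 in all 10 retinas. The gene lengths equal the union of all annotated exons for 88 of 94 members, so that a member with a long model such as Ndufab1, 6883 bases, has a lower level per length than its main transcript would give.

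**Figure D4:**
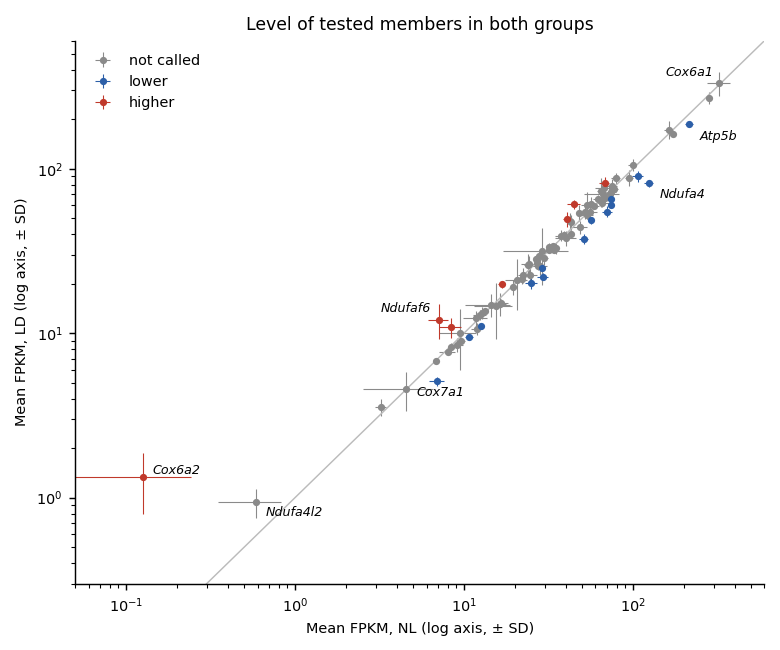
Mean FPKM in NL against LD for 90 of the tested members on log axes, with SD over 5 retinas as bars and the line of equal level. Members lie along the line, and Cox6a2 stands apart above the line.

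In complex I, 2 of 36 subunits were higher (5.56%, against 14.5% of all genes tested) and 9 were lower (25%, against 13.4%). The 7 core subunits carry the flavin and the iron-sulphur clusters or lie at the site of ubiquinone. Of them 3 were lower (42.9%, against 13.4% of all genes) and none higher. Ndufs3 was at 30, 27.6, 29.6, 29.8 and 28.7 FPKM in NL-1, NL-4, NL-5, NL-7 and NL-8 and at 24.5, 26.3, 24.1, 24.1 and 25 FPKM in LD-1, LD-4, LD-6, LD-7 and LD-8. All LD retinas lay below all NL retinas, and the log2 fold change was -0.23 ± 0.04 (SE), adjusted p = 0.00133. Ndufv1, which binds NADH and the flavin, was at 56.5 FPKM ± 1.41 in NL and 48.5 FPKM ± 2.36 in LD (log2 fold change -0.22 ± 0.04, adjusted p = 0.00312), and Ndufs1, the largest of the iron-sulphur subunits, at 12.6 FPKM ± 0.562 and 11.1 FPKM ± 0.341 (-0.18 ± 0.04, adjusted p = 0.00887). Neither overlapped between the groups. Ndufs7, Ndufs8 and Ndufv2 were not called, with log2 fold changes of -0.14 to 0.01. Without the factor per retina none of the 3 was called (log2 fold changes of Ndufs3, Ndufv1 and Ndufs1 of -0.10, -0.09 and -0.05), and Ndufv2 was called higher (0.15). With median-ratio factors 4 of 7 core subunits were lower, Ndufs7 among them (-0.14, adjusted p = 0.042), against 14.6% of all genes. The median core subunit lay 0.09 to 0.13 below the median of all genes on the log2 scale under each of the 5 scalings, and this is a description of 7 genes without a test.

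The accessory subunits surround the core and hold the membrane arm together. Of 29, 2 were higher (6.90%, against 14.5% of all genes tested) and 6 lower (20.7%, against 13.4%). These counts went to 7 higher and 3 lower without the factor per retina, where 23.5% of all genes were higher and 8.2% lower. The lower calls included 5 of the 10 Ndufb subunits (50%, against 13.4% of all genes), which sit in the membrane arm that pumps protons. None of the 10 was higher. Under the other scalings none was higher either, and 2 were lower without the factor per retina, 3 as TPM and 5 after quantile normalization or with median-ratio factors. Of all genes, 7.47% to 14.8% were lower under these scalings. Ndufb2 was at 7.88, 5.94, 6.78, 6.6 and 7.29 FPKM in the NL retinas and at 5.6, 4.89, 5.03, 5.03 and 4.86 FPKM in the LD retinas, in the order of retinas given above. The groups did not overlap, and the level fell by 25.7% on the fitted scale (log2 fold change -0.43 ± 0.08, adjusted p = 0.00201). Ndufb3 was at 72.6 to 76.9 FPKM in NL with a median of 73.1, and at 58.1 to 63.8 FPKM in LD with a median of 58.6. It was among the steadiest members, and its log2 fold change was -0.29 ± 0.04 (adjusted p = 0.000597). Ndufb8 (log2 fold change -0.31), Ndufb11 (-0.25) and Ndufb5 (-0.18) were also lower, with adjusted p of 0.00667, 0.0196 and 0.0173, and of these Ndufb5 alone had no overlap between groups. These last 3 were not called without the factor per retina, at -0.18, -0.12 and -0.05, whereas Ndufb2 and Ndufb3 were, at -0.30 and -0.15. Ndufb4, Ndufb6, Ndufb7, Ndufb9 and Ndufb10 ranged from -0.14 to 0.17 and were not called, and 39% of the exon bases of Ndufb6 are shared with a gene on the opposite strand.

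Among the Ndufa subunits Ndufa10 was lower. It was at 29.9, 28, 32.1, 30.4 and 26.5 FPKM in NL and at 22.9, 20.5, 22.2, 21.7 and 23.2 FPKM in LD. The highest LD retina lay below the lowest NL retina, and the log2 fold change was -0.41 ± 0.06 (adjusted p = 0.00044). Ndufa3 moved the other way, from 45.6, 41, 46.2, 50.1 and 40.4 FPKM in NL to 63.8, 56.9, 65, 58.8 and 59.2 FPKM in LD. All LD values lay above all NL values, and the log2 fold change was 0.45 ± 0.07 (adjusted p = 0.000618). Ndufa8 was higher by 0.27 ± 0.07 (adjusted p = 0.0197), with overlapping groups of 63.2 to 74.4 and 71.3 to 88.4 FPKM. Its call was lost in 3 settings, with the closest pairs of retinas averaged and in the 8 retinas with shared numbers with and without a block. Both Ndufa10 and Ndufa3 were called under each scaling. The other 9 Ndufa subunits and Ndufab1, the acyl carrier protein, ranged from -0.12 to 0.18 and were not called. Ndufa13, at the upper end, shares 30% of its exon bases with a gene on the opposite strand. Ndufc1, Ndufc2, Ndufs4, Ndufs5, Ndufs6 and Ndufv3 completed the accessory subunits at -0.06 to 0.15, none called. A single retina stood off for Ndufs5, where NL-8 had 39.2 FPKM and the NL retinas beside it 70.3 to 77.8, and for Ndufa12, where LD-8 had 24.1 FPKM and its group otherwise 10.9 to 14.

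The Ndufaf genes encode proteins that build complex I and then leave it. Ndufaf6 was at 6.97, 5.98, 6.62, 7.25 and 8.54 FPKM in NL and at 13.9, 9.5, 8.94, 15.6 and 12.5 FPKM in LD. No LD retina reached down to the NL range, and LD-1 and LD-7 were highest. Its log2 fold change of 0.74 ± 0.16 (adjusted p = 0.00508) was the largest of any tested member apart from Cox6a2. Ndufaf8, partner of Ndufaf5, was at 15.6 to 17.6 FPKM in NL and 18.7 to 21.2 FPKM in LD (log2 fold change 0.24 ± 0.05, adjusted p = 0.00432), again without overlap. Both were called under each of the 5 scalings. Ndufaf5, which hydroxylates the core subunit Ndufs7, was at 29.7 and 27.7 FPKM in LD-1 and LD-7 and at 13.9 to 17.9 FPKM in the other LD retinas, against 17.7 to 25.9 FPKM in NL, and its groups overlapped (log2 fold change -0.02 ± 0.21, adjusted p = 0.953). The remaining 5, Ndufaf1, Ndufaf2, Ndufaf3, Ndufaf4 and Ndufaf7, ranged from -0.09 to 0.13 and were not called. Ndufaf2 shares 65.6% of its exon bases with a noncoding RNA on the opposite strand, and the reads of such partners cannot be told apart in libraries that do not mark strand.

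**Figure D5:**
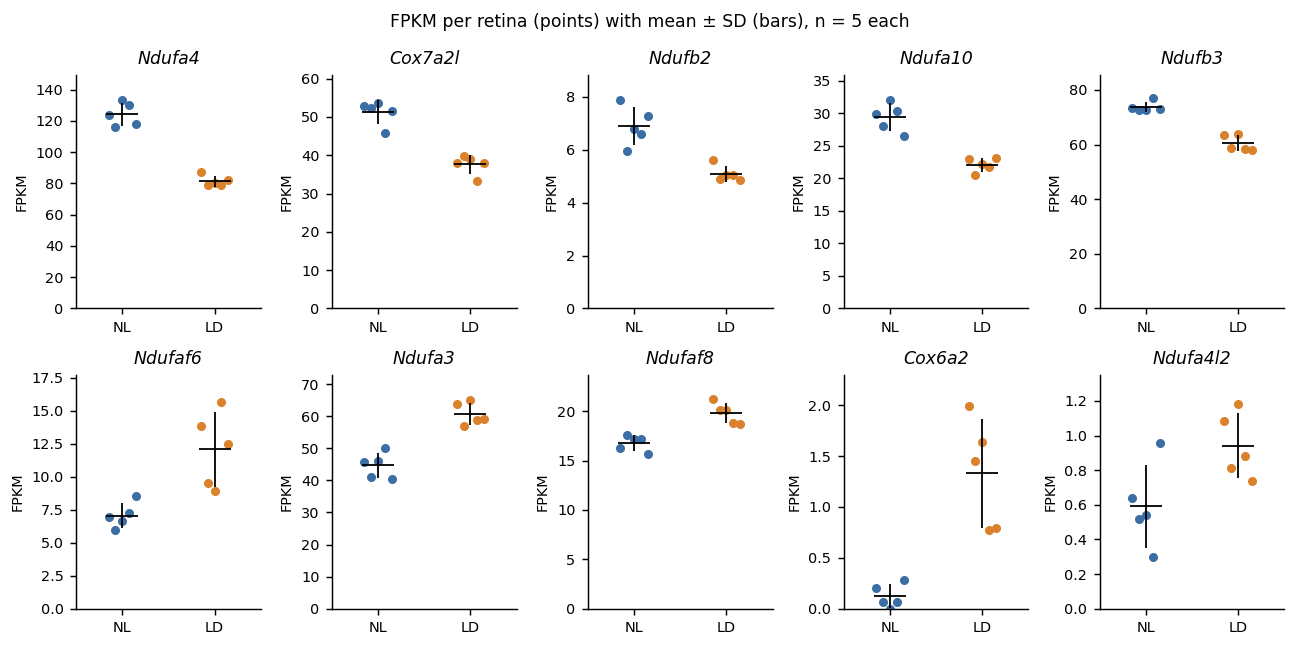
FPKM per retina (points) with mean ± SD (black bars, n = 5) for 10 members, on axes from 0. The groups do not overlap for 9 of them, and they do for Ndufa4l2, which was not called.

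Complex II links the citric acid cycle to the chain and is encoded wholly in the nucleus. None of its 4 genes was called. Sdha, the flavoprotein, was at 77.6 FPKM ± 3.47 in NL and 75.1 FPKM ± 2.55 in LD (log2 fold change -0.05 ± 0.04, adjusted p = 0.493), and Sdhb, the iron-sulphur protein, at 24.1 FPKM ± 2.32 and 26.2 FPKM ± 3.33 (0.12 ± 0.09, adjusted p = 0.409). The membrane anchors Sdhc and Sdhd were at 16.4 FPKM ± 1.27 and 31.9 FPKM ± 1.26 in NL and at 15.1 FPKM ± 2.37 and 33.6 FPKM ± 1.86 in LD, with log2 fold changes of -0.13 ± 0.10 and 0.08 ± 0.05. With 2 standard errors on either side, the changes of all 4 lay between -0.34 and 0.31. Without the factor per retina Sdha (0.09) and Sdhc (0.01) turned to the positive side, and Sdhd was called higher (0.21).

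Complex III had 1 lower call among 8 subunits (12.5%, against 13.4% of all genes tested). Uqcrh, the acidic hinge protein between cytochrome c1 and cytochrome c, was at 67.6, 65.7, 73.2, 77.1 and 68.7 FPKM in NL and at 57.8, 53.6, 56.4, 48.1 and 58.1 FPKM in LD. The groups did not overlap, LD-7 was lowest, and the log2 fold change was -0.36 ± 0.06 (adjusted p = 0.00186). The call held under each scaling. Higher calls in the complex appeared without the factor per retina for 3 subunits, Uqcrq (0.27), Uqcrfs1 (0.19) and Uqcrc2 (0.15), and as TPM for Uqcrq alone (0.24). Of all genes tested, 23.5% were higher without the factor and 18.6% as TPM. Uqcrc1, a core protein, had groups that did not overlap, at 32.9 to 35.3 FPKM in NL and 31.1 to 32.8 FPKM in LD, but its log2 fold change of -0.10 ± 0.04 missed the threshold (adjusted p = 0.0577). With median-ratio factors, where 14.6% of all genes were lower, Uqcrc1 was called lower (-0.12, adjusted p = 0.0272). Uqcr11 had the highest value of the complex, 0.16 ± 0.12 (adjusted p = 0.383), with LD retinas spread from 56.5 to 91.1 FPKM, and Uqcr10 the highest level, 74.8 FPKM ± 5.31 in NL and 78.5 FPKM ± 8.11 in LD. The Rieske protein Uqcrfs1 and the other 3 subunits lay between -0.09 and 0.13.

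The largest drop of any member was in complex IV. Ndufa4, which was named for complex I but is now placed in complex IV and whose promoter window is printed above, was at 124, 116, 133, 130 and 118 FPKM in NL and at 87.3, 78.9, 80.3, 78.7 and 82.1 FPKM in LD. The LD retinas sat close together and well below the NL retinas, with a fall by 34.3% on the fitted scale (log2 fold change -0.61 ± 0.05, adjusted p = 1.85e-05). Its rank by level went from 6 in NL to 11 in LD. The other 10 common subunits of complex IV were not called, with log2 fold changes of -0.12 for Cox5a to 0.17 for Cox7b. Without the factor per retina and as TPM 3 of them were called higher, Cox7b (0.31 and 0.28), Cox6b1 (0.22 and 0.19) and Cox7c (0.22 and 0.19). After quantile normalization 2 were, Cox7b (0.20, adjusted p = 0.0405) and Cox4i1 (0.25, adjusted p = 0.0498). Of all genes tested, 23.5% were higher without the factor, 18.6% as TPM and 13.9% after quantile normalization. Cox4i1, the largest of the nuclear subunits, was at 162 FPKM ± 9.89 in NL and 172 FPKM ± 21.4 in LD (0.08 ± 0.09, adjusted p = 0.562).

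Cox7a2l, which joins complexes III and IV into supercomplexes, was at 52.9, 52.5, 53.7, 45.8 and 51.6 FPKM in NL and at 38, 39.8, 39.1, 33.2 and 37.9 FPKM in LD. All LD retinas were lower than all NL retinas (log2 fold change -0.45 ± 0.06, adjusted p = 0.000343). In both groups the retina numbered 7 was the lowest. Cox7a2l was lower under each scaling, as was Ndufa4.

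Several subunits of complex IV have a second form that is known from muscle, testis, lung or hypoxic cells. Cox6a2, the heart and skeletal muscle form of Cox6a, was counted with at most 5 reads in an NL retina and with 12 to 33 in an LD retina, or 0.206, 0.0692, 0, 0.0693 and 0.285 FPKM in NL and 1.99, 1.45, 1.64, 0.775 and 0.793 FPKM in LD. The groups did not overlap, and LD-1 was highest. NL-4, NL-5 and NL-7 lay below 0.1 FPKM, so the gene passed the filter only with its LD retinas, where it is high. The log2 fold change was 2.73 ± 0.40 (adjusted p = 0.000529) and depends on the pseudocount at such low counts, from 1.02 with a pseudocount of 1 to 3.91 with a pseudocount of 0.01, higher after LD in each setting that tested it. Summed over retinas, 102 LD reads stood against 10 NL reads, a ratio of 10 after library size with a 95% interval of 5.23 to 21.5 (exact binomial, counting error only). Cox6a2 thus remained 0.399% of Cox6a1 after LD, against 0.0388% in NL. Of 8 skeletal muscle genes 4 passed the filter and none was called, with a summed level of 3.57 to 5.29 FPKM in NL and 3.34 to 3.87 FPKM in LD. Cox6a2 shares 70 exon bases (10.3%) with Itgad on the opposite strand.

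Within a retina a single factor per library cancels from the ratio of such a form to its common partner, apart from the pseudocount of 0.1 added to both. Quantile normalization is not such a factor and was not applied to the ratios. Of 8 ratios tested by two-sided exact permutation over retinas, 3 reached the smallest p that 5 against 5 retinas allow, 0.00794, or 0.0212 adjusted over the 8. These were Cox6a2 to Cox6a1, higher after LD by 2.70 on the log2 scale, Ndufa4l2 to Ndufa4, higher by 1.25, and Atp5g2 to Atp5g3, higher by 0.27. The size of the Cox6a2 ratio depends on the pseudocount, and Cox6a2 passed the filter only with its LD retinas. Ndufa4l2, a hypoxia-induced relative of Ndufa4, was itself at 0.591 FPKM ± 0.239 in NL and 0.94 FPKM ± 0.188 in LD and was not called (log2 fold change 0.64 ± 0.25, adjusted p = 0.0807), and on the log2 scale the change of the ratio adds that of Ndufa4l2 to the fall of Ndufa4. Cox6b2, known from testis, was called by a small margin (log2 fold change 0.38 ± 0.12, adjusted p = 0.0394) with overlapping groups of 6.93 to 9.58 and 8.59 to 12.1 FPKM, and its ratio to Cox6b1 rose by 0.30 with an exact permutation p of 0.119. The call was lost in 12 of 24 alternative settings, median-ratio scaling among them. The ratios of Cox4i2, Cox7a1 and Cox8b to Cox4i1, Cox7a2 and Cox8a differed by 0.00, 0.16 and 0.09 between groups, with exact permutation p of 0.992, 0.714 and 0.786, and each of the 3 minor forms varied widely among retinas of a group, as Cox7a1 did from 1.85 to 6.87 FPKM in NL.

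In ATP synthase, 2 of the 5 tested genes of the catalytic F1 head were lower (40%, against 13.4% of all genes). In the membrane part and stalk 1 of 11 was higher (9.09%, against 14.5%). Atp5b was at 226, 217, 227, 208 and 200 FPKM in NL and at 190, 186, 188, 179 and 193 FPKM in LD, without overlap (log2 fold change -0.20 ± 0.06, adjusted p = 0.02). Atp5c1, the gamma subunit that turns inside the head, was at 74.4 FPKM ± 2.59 in NL and 65.2 FPKM ± 2.43 in LD (-0.19 ± 0.04, adjusted p = 0.0064). Without the factor per retina neither was called (-0.07 and -0.06), and after quantile normalization Atp5b stood at 0.00. Of the membrane part and stalk 4 of 11 were higher without the factor and as TPM, against 23.5% and 18.6% of all genes. Atp5mpl (0.32 and 0.29), Atp5o (0.22 and 0.19) and Atp5f1 (0.14 and 0.11) were called beside Atp5g2. Of the F1 head Atp5d was called (0.24 and 0.21). Atp5a1, the alpha subunit, was at -0.08 ± 0.05 (adjusted p = 0.269). Atp5e was erratic in both groups, from 11.5 to 43.5 FPKM in NL and from 11.5 to 42.1 FPKM in LD, and its 0.12 ± 0.41 carries little information.

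Atp5g1, Atp5g2 and Atp5g3 encode the same mature protein, the c subunit of the rotating ring. Atp5g2 was at 37.4 to 42.2 FPKM in NL and 42.9 to 53.8 FPKM in LD, without overlap, and was higher by 0.27 ± 0.07 (adjusted p = 0.0152). Its call was lost in the 8 retinas with shared numbers, both with a block (adjusted p = 0.13) and without it (adjusted p = 0.065). Atp5g3 was at 59.1 FPKM ± 3.8 and 59 FPKM ± 2.46, and Atp5g1 at 11.8 FPKM ± 1.95 and 12.3 FPKM ± 1.34, neither called. Atp5g2 therefore went from 68.9% to 83.6% of Atp5g3. The remaining 8 tested genes of the membrane part and stalk lay between -0.16 (Atp5l) and 0.19 (Atp5mpl), and Atp5s, a coupling factor, at -0.10.

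The 8 members called under the deposited scaling and in each of 24 alternatives were Ndufa4, Cox7a2l, Ndufb2, Ndufa10 and Ndufb3, all lower, and Ndufaf6, Ndufa3 and Ndufaf8, all higher. When the 3 closest pairs of retinas within a group were averaged, 8 of the 21 calls were lost. These were Ndufs1, Ndufb5, Ndufb8, Ndufb11, Atp5b and Atp5c1 among the lower ones and Ndufa8 and Cox6b2 among the higher ones. Over all 24508 genes tested, calls went from 3543 higher and 3275 lower to 2354 higher and 2031 lower in that setting. On GRCm38 Ndufa4, Cox7a2l, Ndufb2, Ndufa10, Ndufb3, Ndufaf6, Ndufa3 and Ndufaf8 lie at chr6:11900292-11907497, chr17:83501919-83514333, chr6:39592574-39603382, chr1:92439010-92473860, chr1:58586384-58595964, chr4:11051045-11076205, chr7:3617373-3620327 and chr11:120098928-120100705, in that order.

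Other genes of the pathway, 119 tested in all with the subunits of the mitochondrial genome, were counted by the same test. As deposited 10 were higher (8.4%, against 14.5% of all genes tested) and 22 lower (18.5%, against 13.4%). Without the factor per retina the balance turned, with 32 higher (26.9%, against 23.5%) and 10 lower (8.4%, against 8.2%). As TPM 28 were higher (23.5%, against 18.6%) and 11 lower (9.24%, against 7.47%). The counts that follow are at the deposited scaling. Among regulators of mitochondrial biogenesis, 1 of 13 was higher and 3 were lower. Ppargc1a, a coactivator of respiratory genes, was at 7.45 to 8.5 FPKM in NL and 3.98 to 5.51 FPKM in LD (log2 fold change -0.86 ± 0.08, adjusted p = 3.9e-05), and Ppargc1b at 16.2 FPKM ± 7.94 and 7.52 FPKM ± 2.19 (-1.01 ± 0.32, adjusted p = 0.0383). Their relative Pprc1 moved the other way, from 4.33 FPKM ± 0.222 to 7.17 FPKM ± 1.39 (0.69 ± 0.12, adjusted p = 0.00148). Nrf1, the factor whose motif was searched, was lower by -0.28 ± 0.07 (adjusted p = 0.0127), and Gabpa, Esrra and Tfam were not called.

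Of 39 tested assembly factors without an Ndufaf name, 1 was higher and 5 were lower, or 10 higher and 3 lower without the factor per retina. Without that factor 23.5% of all genes tested were higher and 8.2% lower. Bcs1l, which inserts the Rieske protein into complex III, was higher by 0.24 ± 0.07 (adjusted p = 0.0257), and Uqcc3, another complex III factor, fell from 57.9 FPKM ± 3.33 to 39.9 FPKM ± 5.71 (-0.54 ± 0.09, adjusted p = 0.00104). The complex II factors Sdhaf1 and Sdhaf4 were lower by -0.56 ± 0.14 and -0.48 ± 0.11, although no complex II subunit was called. Of 13 genes of coenzyme Q synthesis 4 were higher, led by Coq4 (0.42), and 4 lower, led by Coq8a (-0.37). Of 16 genes of the citric acid cycle and pyruvate dehydrogenase 1 was higher, Suclg2 (1.23 ± 0.22, adjusted p = 0.00196), and 4 were lower, Pdhb furthest (-0.29). Of 21 genes of import, carriers and shape 3 were higher, Hspe1 furthest (0.42), and 5 lower, Timm44 furthest (-0.71). The 4 genes looked at that the name rule leaves out, Cyc1, Cycs, Usmg5 and Atpif1, were not called. Their log2 fold changes ranged from -0.07 for Usmg5 to 0.20 for Atpif1.

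The 13 subunits of the mitochondrial genome, which join the members in the same complexes, had a median log2 fold change of -0.09, with 1 lower call, mt-Nd6 (-0.44 ± 0.13, adjusted p = 0.0314). Their summed level was 15344 to 17807 FPKM in NL and 11277 to 16066 FPKM in LD, overlapping, with LD-7 and LD-1 lowest. Their levels per length lay far apart, from mt-Atp8 at 2.34 FPKM ± 1.48 to mt-Co1 at 4373 FPKM ± 524 in NL.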

How the data were processed

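RNA of 10 neural retinas, 5 NL and 5 LD as their labels give them, was measured by RNA-seq after TRIzol extraction and an Illumina TruSeq kit. The authors deposited 1 table of FPKM per gene. The submitters' processing notes name TopHat2 2.0.9, Bowtie2 2.0.6 and build mm8, whereas the deposited positions match GRCm38 (GENCODE M21) for 53499 of 54532 genes. The counting program and its annotation are not given in the sources used here. FPKM times gene length gave whole reads (within 0.05) for 100% of values, from which depth and the factor per retina were taken. The deposited unit is FPKM, so limma-voom on these reads was only an alternative, beside other pseudocounts, filters and scalings and leaving out each retina.

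From the deposited FPKM, log2(FPKM + 0.1) was fitted for the genes that reached 0.1 FPKM in 5 or more retinas, with limma 3.58.1 under R 4.3.3 (intensity trend, LD minus NL, no block, Benjamini-Hochberg over 24508 genes). Errors are SD over retinas or SE of the fit. Isoform ratios used two-sided exact permutation tests. Summaries and plots used Python 3.11.15, numpy 2.4.6, pandas 2.3.3 and matplotlib 3.10.9. The fit was tested on simulated data. Retinas are described by the study as biological replicates. The pairs NL-5 and NL-7, LD-1 and LD-7, and LD-4 and LD-6 were closer to each other (chi-square per gene 2.65 to 3.65) than the other 17 pairs of a group (12.2 to 43.4) but differed by more than sampling noise, and an alternative averaged them. Whether such a pair came from 1 animal or litter is not given in the sources used here. Xist was present in 2 retinas of each group, and its presence was fitted as a covariate chosen after the data were seen.

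The members and gene lists were chosen with earlier results of these data known. The rule for named members took the 4 Sdh genes, the highest and lowest log2 fold change and the highest NL level of each class, both genes of each isoform pair and members past 2-fold, and the extremes of each other list. Further members are named because they were called, varied most or were near the threshold, chosen after their values were seen. The values of 1 member that counts and sums include are not reported here. Exon overlap was taken from GENCODE M21: 33 members share exon bases with another gene, 4 of them over 20%. By sequence, 26 members match another gene at 95% identity or more over at least 100 bases, and their counts are uncertain to that extent. For the called members Atp5c1, Atp5g2, Cox7a2l, Ndufb3, Ndufb11 and Ndufs3 each such match is a pseudogene. Ndufaf7, Ndufc1 and Atp5g1 matched 119, 25 and 19 genes, of which 2, 0 and 2 were pseudogenes.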

Additional observations from a re-analysis of the deposited data

Results flagged for a closer look

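Among 36 named members, 72 groups of 5 retinas were checked for a retina far from the others, of which chance alone flags about 1 in 20, or 3.6 groups. There were 3 such retinas. Cox7a2l, the supercomplex factor, was at 45.8 FPKM in NL-7, below the 51.6 to 53.7 FPKM of the other NL retinas. It was also at 33.2 FPKM in LD-7, below the 37.9 to 39.8 FPKM of the other LD retinas. Ndufb2, a membrane arm subunit of complex I, was at 5.60 FPKM in LD-1, above the 4.86 to 5.03 FPKM of the other LD retinas. Both genes stayed lower after LD when each of these retinas was left out.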

How the results depend on the processing

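There were 24 alternatives, 1 of them (Xist presence as a covariate, which left 7 members higher and 14 lower) chosen after the data were seen. Limma-voom on the recovered reads also gave 7 higher and 14 lower. Calls of members (7 higher, 14 lower) moved with the scaling: without the factor per retina 25 were higher and 6 lower with a median of 0.11, and as TPM 20 were higher and 8 lower with a median of 0.0822, while quantile normalization gave 11 higher. Shares over all genes tested moved too, to 23.5% higher and 8.2% lower without the factor and 18.6% and 7.47% as TPM. Other genes of the pathway went from 10 higher and 22 lower to 32 higher and 10 lower without the factor. Without the factor Sdha (0.0869), Sdhc (0.0067), Cox7a2 (0.0804), Cox8a (0.0791), Ndufaf4 (0.0395), Ndufaf5 (0.11), Atp5g3 (0.13) and Atp5h (0.0256) became positive on the log2 scale, as did as TPM Sdha (0.0575), Cox7a2 (0.051), Cox8a (0.0497), Ndufaf4 (0.0104), Ndufaf5 (0.0805) and Atp5g3 (0.10), and after quantile normalization Cox8a (0.14), Atp5b (0.0009) and Atp5g3 (0.0215). Ndufv2 went to -0.008 with median-ratio factors. With the closest pairs averaged 5 members were higher and 8 lower. In that setting 2354 of all 24508 genes tested were higher and 2031 lower. There the ratio of Ndufa4l2 to Ndufa4 was 1.08 with an unadjusted exact permutation p of 0.0571 over the 7 values left. Atp5e was at -0.0892 and Atp5g3 at 0.0264. A filter of 1 FPKM removed Cox6a2, leaving 0 members over 2-fold, and with a pseudocount of 1 the ratio of Cox4i2 to Cox4i1 was -0.0047.

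Replicate numbers 1, 4, 7 and 8 occur in both groups but same-numbered retinas did not deviate together (correlations 0.06, 0.07, -0.01 and -0.09). The labels do not say whether the numbers pair retinas, and these correlations cannot exclude a shared litter, cage or run. With a replicate block over these 8 retinas 5 members were higher, 5 lower and 0 over 2-fold. Of all 24508 genes tested, 2116 were higher and 1689 lower with that block. In the same 8 retinas without the block 4 members were higher and 12 lower. Of all genes tested, 2607 were higher and 2151 lower there. Both fits put Cox6a1 at -0.0532 and Ndufaf5 at 0.0324.

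With each retina left out in turn, members higher ranged from 6 to 9 and lower from 13 to 15, and the median from -0.03 to 0.01. Log2 fold changes that changed sign ranged from -0.18 to 0.45 for Atp5e, -0.0366 to 0.0248 for Atp5g3, -0.0638 to 0.19 for Cox4i2, -0.0296 to 0.11 for Cox6a1, -0.17 to 0.29 for Cox7a1, -0.16 to 0.18 for Cox8b and -0.16 to 0.11 for Ndufaf5. The log2 ratios ranged from -0.12 to 0.10 for Cox4i2 to Cox4i1, 0.23 to 0.41 for Cox6b2 to Cox6b1 (unadjusted exact permutation p of 0.0317 without LD-4), -0.12 to 0.35 for Cox7a1 to Cox7a2 and -0.11 to 0.24 for Cox8b to Cox8a. Depth limits Cox6a2, Cox7b2 and Ndufa4l2, at no more than 33 reads per retina.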
